A study of Mus musculus with 30 samples.

Results

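The 9 genes described here are regulators and markers of endoderm, taken by gene symbol from the annotation of the array and followed through 5 days of differentiation of mouse embryonic stem (ES) cells. They are Gata4, Gata6, Sox17, Sox7, Foxa1, Foxa2, Hhex and Hnf4a, which are transcription factors, and Dab2, an endocytic adaptor protein that is a marker of extraembryonic endoderm and not a transcription factor. All 20 probe sets that name 1 of these genes were used, among 34945 probe sets for 18193 genes. Gata4, Sox17 and Sox7 had 2 probe sets each, Gata6 had 3, Hnf4a and Dab2 had 4 each, and Foxa1, Foxa2 and Hhex had 1 each. The probe sets of a gene are called first, second and so on in the order in which the heat map of all 20 lists them with their identifiers.

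The study measured total RNA of cells with floxed alleles of Jmj (Jarid2), called Fl/Fl and wild-type in the labels, and of Jmj (-/-) mutant cells, called null here. Jarid2 encodes a component of a Polycomb repressive complex. Cells were undifferentiated on day 0, and differentiation followed withdrawal of LIF, the cytokine that keeps mouse ES cells undifferentiated, with RNA taken on days 0, 2, 4, 6 and 8. Each Fl/Fl day had 2 arrays, and null cells had 3 arrays on day 0, 5 each on days 2, 4 and 6, and 2 on day 8, 30 arrays in all. The sources used here do not say how the null allele was made, how many clones stand behind each genotype or whether feeder cells were used. The labels call the replicates biological without saying what separated them, so p-values measure the spread between these arrays.

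Gata6 and Gata4 are zinc-finger factors that act early in primitive endoderm, the extraembryonic layer next to the epiblast, and Gata4 also acts in cardiac mesoderm. Sox17 and Sox7 are related HMG-box factors of endoderm, and Sox17 is required in definitive endoderm, the layer that forms the gut. Foxa1 and Foxa2 are forkhead factors that bind closed chromatin and act in definitive endoderm, node and floor plate. Hhex is a homeobox factor of anterior endoderm, and Hnf4a is a nuclear receptor of visceral endoderm and liver. Several of these genes are also used outside endoderm, so none by itself names a cell type.

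On day 0 the arrays carried high levels of the ES cell regulators: Pou5f1 intensity ranged from 6474 to 9284 in Fl/Fl and from 6859 to 8228 in null arrays, and Nanog from 4466 to 4989 and from 2573 to 4157. Jarid2 was not lower on the arrays labelled null, since its brightest probe set ranged from 319 to 3340 in Fl/Fl and from 383 to 4082 in null arrays over the 5 days. The sources used here do not place its probe sets relative to the deleted part, so Jarid2 does not check these labels. Array medians were 10 or 11, and 34.3 to 37.2% of probe sets lay above an intensity of 50 on each array.

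The null arrays were not alike in genes outside endoderm. Eif2s3y, a Y-linked gene, was 594 to 981 on 11 of 20 null arrays and 11 to 365 on the other 9, and it was 130 to 234 in Fl/Fl arrays. Tmem87a was 172 to 348 on those 11 arrays and 9 to 12 on the other 9 and in Fl/Fl arrays, and the actin control ratio (3′ over 5′ probe sets) was 1.29 to 1.43 on the 11 arrays, 1.545 to 2.02 on the 9 and 1.48 to 2.04 in Fl/Fl. The 11 arrays include replicates 3 to 5 of day 6, and none is from day 8. Results are therefore also given for the null arrays with Eif2s3y of 500 or more and of less than 500, which are subsets defined by these values and not groups of the study. The subset under 500 is itself mixed. Its Eif2s3y was 16 on day 2 replicate 1, and 12, 13 and 11 on replicate 2 of days 4, 6 and 8. On its other arrays it was 217 to 365. Replicates 1 and 2 of day 6 thus differ in this, as do the 2 arrays of day 8.

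Promoter windows of 250 bases before the annotated start, from RefSeq (GRCm38.p6), were used for 5 of the 9 genes. Member windows on a single chromosome were left out of the selection, so a gene without a window here may have one there. The 2 forkhead genes are shown, because both were near their lowest intensities on most arrays and brightest on the same null array of day 6. For Foxa2, which has 3 windows, the most upstream is shown. Both are printed 5′ to 3′ in the direction of the gene, with CG dinucleotides in capitals. Foxa1 lies on the minus strand at chr12:57546112-57546361 and Foxa2 on the minus strand at chr2:148046970-148047219.
Foxa1: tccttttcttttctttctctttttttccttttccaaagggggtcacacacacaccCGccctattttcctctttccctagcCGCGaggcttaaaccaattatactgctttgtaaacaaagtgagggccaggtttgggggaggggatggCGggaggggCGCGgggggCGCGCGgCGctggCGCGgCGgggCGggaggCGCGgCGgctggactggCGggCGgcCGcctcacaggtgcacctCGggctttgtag
Foxa2: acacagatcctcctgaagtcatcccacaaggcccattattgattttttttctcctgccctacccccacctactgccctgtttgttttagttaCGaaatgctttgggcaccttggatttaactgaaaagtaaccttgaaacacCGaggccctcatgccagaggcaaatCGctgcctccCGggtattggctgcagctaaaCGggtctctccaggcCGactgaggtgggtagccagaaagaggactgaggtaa
The Foxa1 window held 21 CG dinucleotides, a number reached by 16.3% of the 32851 windows of this length. The printed Foxa2 window held 6, which was also the median over all windows, and the 2 further Foxa2 windows held 20 (reached by 17.9% of windows) and 13 (31.5%). The string TGTTTAC, close to the binding consensus of forkhead factors, was searched on both strands. Among the member windows used here it was found once, in the Foxa1 window, where it reads GTAAACA on the printed strand, and 3.17% of all windows held it. Of the other windows, that of Hhex held 32 CG dinucleotides (4.6% of windows held as many), the 2 of Hnf4a held 3 and 4, and the 2 of Dab2 held 2 and 17.

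An intensity of 50 was taken as the floor of the arrays, a limit chosen for this description. Of the 20 probe sets, 11, from 6 genes, exceeded it on 1 or more arrays: Gata4, Gata6, Sox17, Foxa1, Foxa2 and Dab2. The 9 other probe sets did not exceed it on any array, which left Sox7, Hhex and Hnf4a below it throughout. Only 4 probe sets exceeded the floor on every array of at least 1 group, 1 of Gata6 and 3 of Dab2. Apart from Dab2, a member exceeded it on 11 arrays, 5 of them null. With the floor at 25, 12 probe sets of 7 genes passed, Hhex being the added gene, and at 100 there were 7 probe sets of the same 6 genes.

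**Figure D1:**
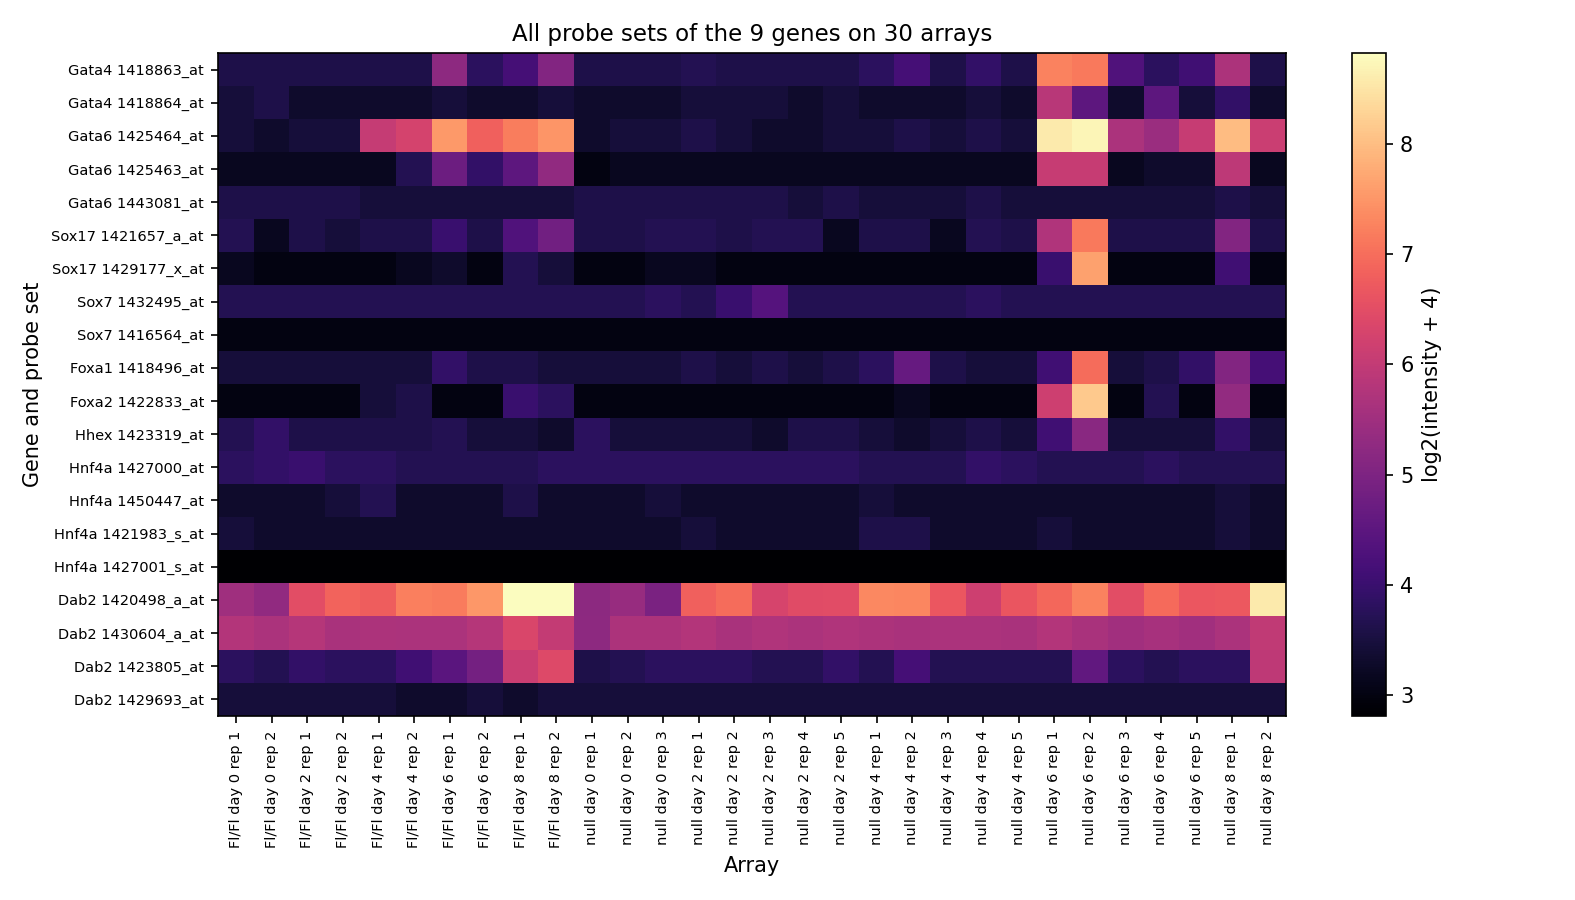
Values of log2(intensity + 4) of the 20 probe sets (vertical axis) on the 30 arrays (horizontal axis), with brighter colours for higher values. The first Gata6 probe set is bright from day 4 in Fl/Fl and from day 6 in null arrays, and Gata4, Sox17, Foxa1 and Foxa2 each have their highest value on replicate 1 or 2 of null day 6.

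Gata6 was the transcription factor of the set that rose with differentiation in both genotypes, and it was above its day 0 level from day 4 in Fl/Fl and from day 6 in null arrays. By its first probe set its intensity in Fl/Fl was 7 and 6 on day 0, 7 and 7 on day 2, 62 and 73 on day 4, 183 and 108 on day 6, and 142 and 176 on day 8. In null arrays it was 6, 7 and 7 on day 0, 8, 7, 6, 6 and 7 on day 2, and 7, 8, 7, 8 and 7 on day 4. It was 379, 416, 47, 39 and 63 on day 6, and 253 and 65 on day 8. On day 4 both Fl/Fl arrays lay above the floor and all 5 null arrays lay near the lowest values of the probe set, with no overlap. On days 6 and 8 the null arrays lay on both sides of the Fl/Fl arrays.

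At day 4 Gata6 was 6.26-fold lower in null than in Fl/Fl arrays on the log2(intensity + 4) scale (log2 difference -2.65, SE 0.66, limma adjusted p = 0.0132), and lower in 5 of 5 null arrays. It was the 1 probe set of 20 called at day 4, where 8.84% of all probe sets were called. The call was lost without either Fl/Fl array of day 4 (adjusted p = 0.1 without replicate 1 and 0.128 without replicate 2) and with a pseudocount of 16 (0.0625). It was also lost with the replicate number as a block. It was kept with the null arrays of Eif2s3y of 500 or more (log2 difference -2.65, SE 0.20, limma adjusted p = 1.14e-06), where 21% of all probe sets were called. It was also kept with those under 500 (-2.63, SE 0.48, adjusted p = 0.0185), where 3.2% were called. All groups of a fit share 1 estimate of the spread for a probe set, so the spread among null day 6 arrays enters the SE at every day.

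Within Fl/Fl, Gata6 rose from day 0 by 2.77 (SE 0.79, limma adjusted p = 0.0213) to day 4, by 3.79 (adjusted p = 0.00109) to day 6 and by 3.95 (adjusted p = 0.000541) to day 8, all as log2 changes. The day 4 rise was not called when any 1 of the 4 arrays compared was left out (highest adjusted p 0.122). Within null, day 4 did not pass, and the rise from day 0 was 3.48 (SE 0.57, adjusted p = 9.63e-05) at day 6 and 3.64 (adjusted p = 0.000528) at day 8. The group means at day 8 were the same, 159 ± 24.0 (SD, n = 2) in Fl/Fl and 159 ± 133 (SD, n = 2) in null, but the null arrays were 253 and 65.

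The other probe sets of Gata6 gave less signal. The second exceeded the floor on 3 null arrays alone: it was 63, 63, 5, 6 and 6 on null day 6 and 57 and 5 on null day 8, against 23 and 11 and then 19 and 35 in Fl/Fl. Its high and low null arrays were the same ones as for the first probe set on day 6. The third was 7 or 8 on every array. Its call as lower on days 4, 6 and 8 in Fl/Fl and on days 4 and 6 in null rests on a step of 1 intensity unit below the floor, where values have no order.

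Of the 20 probe sets, 3 were called between day 0 and day 4 in Fl/Fl (2 higher, 1 lower), 3 at day 6 (2 higher, 1 lower) and 5 at day 8 (4 higher, 1 lower), where 14.5%, 27.1% and 28.5% of all probe sets were called. In null the counts were 2 at day 4 (1 higher, 1 lower), 4 at day 6 (3 higher, 1 lower) and 3 at day 8 (3 higher), beside 11%, 24.5% and 27.5% of all. Each lower call was the third Gata6 probe set, and the higher ones were of Gata6, Dab2 and, at null day 6, Gata4. The members' shares were near or below those of all probe sets.

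**Figure D2:**
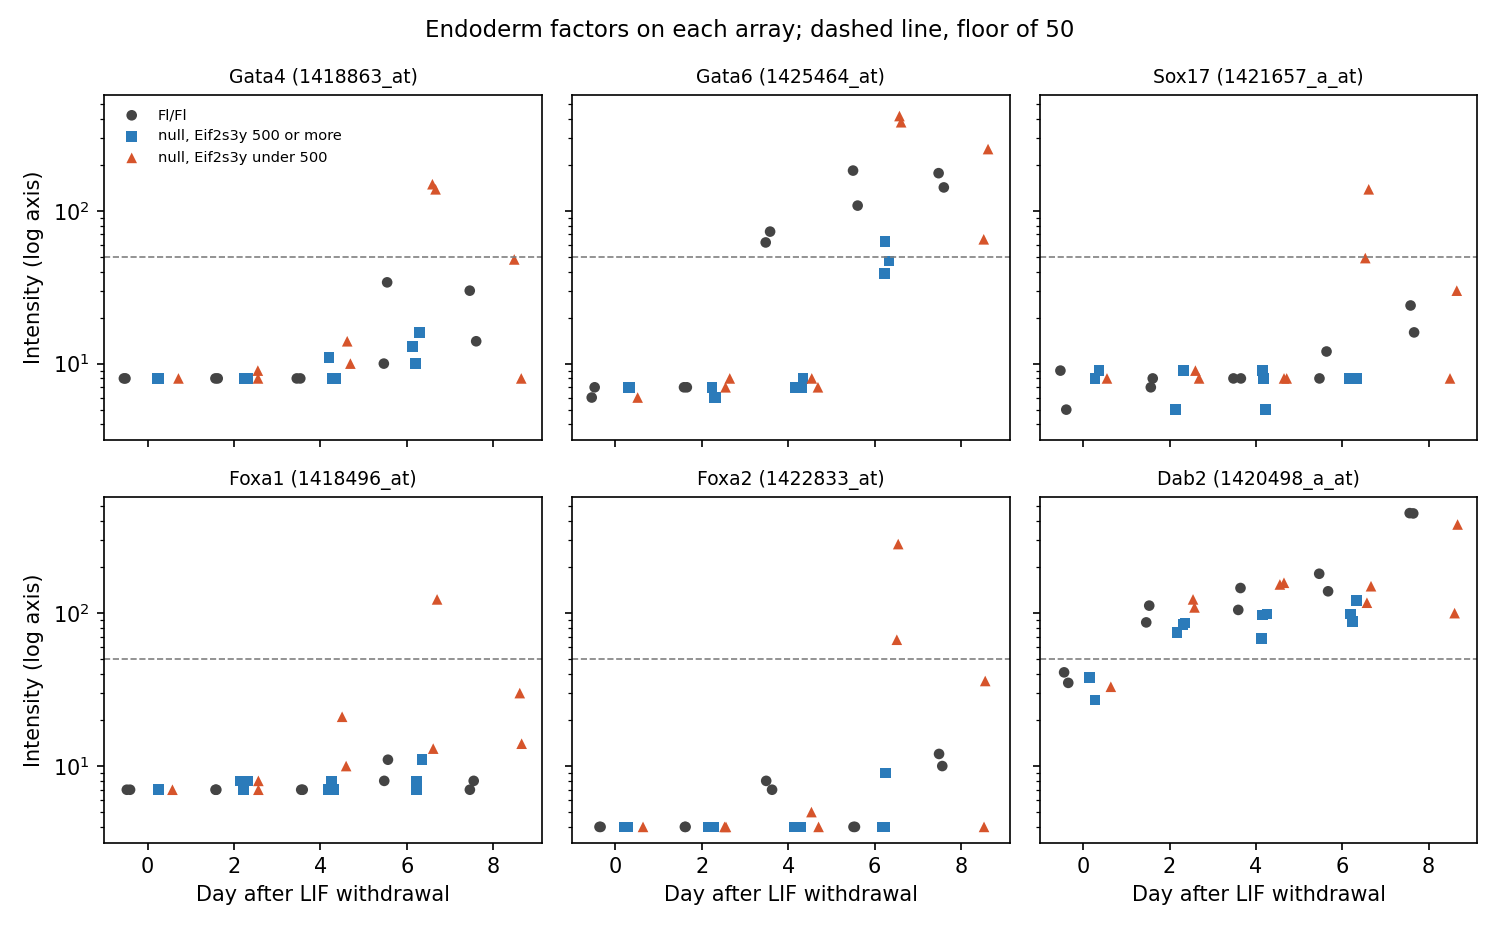
Intensity (log axis) against the day after LIF withdrawal for 1 probe set of each of the 6 genes that exceeded the floor of 50 (dashed line), 1 point per array, with null arrays marked by Eif2s3y of 500 or more or under 500. Gata6 reaches 62 and 73 in Fl/Fl at day 4 while null arrays are at 7 or 8, and Dab2 exceeds the floor on all arrays from day 2.

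Gata4 was bright on few arrays. By its first probe set it was 8 on every Fl/Fl array of days 0 to 4, 34 and 10 on day 6, and 14 and 30 on day 8, so no Fl/Fl array reached the floor. In null arrays it was 10, 14, 8, 11 and 8 on day 4, 149, 138, 16, 10 and 13 on day 6, and 48 and 8 on day 8. The arrays above the floor were replicates 1 and 2 of null day 6. The rise in null from day 0 to day 6 was 1.74 (SE 0.64) and did not pass (limma adjusted p = 0.0528). By the second probe set null day 6 was 54, 19, 6, 19 and 7 and Fl/Fl day 6 was 7 and 6; its rise in null from day 0 passed (log2 change 1.02, SE 0.34, adjusted p = 0.0318). That call was lost without any 1 of the null day 0 arrays or without null day 6 replicate 2 or 4 (highest adjusted p 0.0791, without null day 0 replicate 1), and with the null arrays of Eif2s3y of 500 or more (0.248).

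Sox17 exceeded the floor on 1 array. By its first probe set it was 12 and 8 on Fl/Fl day 6, 16 and 24 on Fl/Fl day 8, 49, 138, 8, 8 and 8 on null day 6, and 30 and 8 on null day 8. By the second null day 6 was 12, 195, 4, 4 and 4, null day 8 was 13 and 4, and Fl/Fl day 8 was 9 and 7. Both probe sets were highest on replicate 2 of null day 6. Neither passed in a comparison of null with Fl/Fl over all arrays. Sox7, its close relative, stayed below the floor: 1 probe set was 4 on every array and the other was 9 to 17.

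The forkhead genes had the same high array. Foxa2 was 7 and 8 on Fl/Fl day 4, 4 and 4 on day 6 and 12 and 10 on day 8, and 67, 283, 4, 9 and 4 on null day 6 and 36 and 4 on null day 8. Foxa1 was 11 and 8 on Fl/Fl day 6, 10, 21, 8, 7 and 7 on null day 4, 13, 123, 7, 8 and 11 on null day 6, and 30 and 14 on null day 8. No Fl/Fl array reached the floor for either gene. Null day 6 replicate 2 was the highest array for both, and replicate 1 was above the floor for Foxa2 and not for Foxa1. The rise of Foxa2 from day 0 to day 6 in null was 1.80 (SE 0.78) and did not pass (limma adjusted p = 0.101).

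Hhex and Hnf4a stayed low. Hhex was 6 to 11 except on null day 6, where it was 13, 32, 7, 7 and 7, its highest values of the series, below the floor. The 4 probe sets of Hnf4a lay between 3 and 12 on all 30 arrays. A level below the floor does not show that a gene is silent. In bulk RNA, fewer cells of a type and less RNA per cell cannot be told apart, and a few cells could carry a gene that the whole culture shows at the floor.

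Dab2, the adaptor protein, had a course of its own. By its first probe set it was 41 and 35 on Fl/Fl day 0, 87 and 112 on day 2, 105 and 146 on day 4, 139 and 181 on day 6, and 451 and 449 on day 8. In null arrays it was 33, 38 and 27 on day 0, 109, 123, 75, 84 and 86 on day 2, 158, 154, 99, 68 and 97 on day 4, 117, 150, 88, 121 and 99 on day 6, and 100 and 380 on day 8. It lay above the floor on every array from day 2 on, and the genotypes overlapped on days 2, 4 and 6. It rose from day 0 in both: by 1.61 (SE 0.43, limma adjusted p = 0.0137), 1.96 and 3.44 (adjusted p = 2.77e-06) at days 4, 6 and 8 in Fl/Fl, and by 1.65 (SE 0.31, adjusted p = 0.00102), 1.69 and 2.46 (adjusted p = 5.11e-05) in null. The day 4 rise in Fl/Fl was not called without Fl/Fl day 4 replicate 2 (adjusted p = 0.136) or Fl/Fl day 0 replicate 2 (0.0795), and the day 6 rise in null was not called with the null arrays of Eif2s3y under 500 (0.0508).

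Day 8 separated the 2 null arrays for Dab2. The third probe set was 65 and 81 in Fl/Fl and 10 and 58 in null, and the second was 78 and 61 in Fl/Fl and 47 and 59 in null. The third probe set rose in Fl/Fl to day 8 by 2.51 (SE 0.40, limma adjusted p = 5.24e-05) and in null by 1.18 (adjusted p = 0.0183), and without null day 8 replicate 2 the null rise was 0.11 (adjusted p = 0.997). The second rose in Fl/Fl by 0.46 (SE 0.13, adjusted p = 0.00777), a call lost without Fl/Fl day 8 replicate 1 (0.169) or Fl/Fl day 0 replicate 2 (0.0678). Null against Fl/Fl at day 8 did not pass for the first probe set (log2 difference -1.18, SE 0.43, adjusted p = 0.164) or the third (-1.38, adjusted p = 0.0749). Without replicate 2 of null day 8, the log2 differences of these 3 Dab2 probe sets, in their order, were -2.13, -0.52 and -2.45. That fit had 1 null array left at day 8, assumed to vary like the other groups. The spread of null day 8 could then not be measured, so no conclusion is drawn from calls in that fit. The fourth probe set was 6 or 7 on every array.

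Over all arrays, comparing null with Fl/Fl, 0 of the 20 probe sets passed on day 0 (0.884% of all probe sets called), day 2 (0.481%), day 6 (8.04%) and day 8 (2.5%). At an unadjusted limma p under 0.05 there were 0, 0, 3 and 3. At day 6 these were a Gata4 probe set (log2 difference 0.95) and Dab2 probe sets with -0.74 and 0.07, so their directions differed. The difference of 0.07 was between means of 6.5 in Fl/Fl and 7 in null, far below the floor. At day 8 all were Dab2 probe sets, with -1.18, -0.37 and -1.38. The share of all probe sets at this unadjusted limit is not given, so these counts have no background to be set beside. The test of whether the genotype difference changed between days (limma's F test) called 0 of 20 beside 3.91% of all, and 1 at an unadjusted p under 0.05, the first Gata6 probe set. For Gata6 at day 6, null was 189 ± 191 (SD, n = 5) and Fl/Fl was 146 ± 53.0 (SD, n = 2).

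The comparison at day 6 depended on which null arrays were taken. With replicates 3 to 5, the null arrays with Eif2s3y of 500 or more, 3 probe sets were called lower than Fl/Fl: the first Gata6 probe set by a log2 difference of -1.46 (SE 0.20, adjusted p = 0.000153), the second by -1.06 (0.00506) and the third Dab2 probe set by -0.89 (0.000151), where 19.7% of all probe sets were called. With replicates 1 and 2, under 500, 3 others were called higher: Foxa2 by 4.16 (SE 0.71, adjusted p = 0.0263), the first Sox17 probe set by 2.65 (0.0433) and the second Gata4 probe set by 1.80 (0.0396), where 1.3% of all were called. Gata6 was thus below Fl/Fl in one subset, while in the other its values of 379 and 416 lay above 183 and 108 without a call. With so few arrays a missing call does not show equal levels.

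The null arrays of day 6 were then compared among themselves, by a rule that a probe set exceed the floor on 1 or more of the 5 arrays and span a log2 range of 2 or more, which is 4-fold. Of the 20 probe sets 8 met it, and 1.3% of all 34945 did. All but the first Gata6 probe set among the 8 exceeded the floor on replicate 1 or 2 alone and were 4 to 19 on replicates 3 to 5, so passing the floor largely fixed their range, and the count supports nothing by itself. Foxa2 spanned 5.17 (35.9-fold), Sox17 4.64 (second probe set) and 3.57, Foxa1 3.53, Gata4 3.45 and 2.54, and Gata6 3.29 and 2.90. The Dab2 probe sets spanned 0.88 or less. Replicates 1 and 2 both lay above replicates 3 to 5 in 7 of the 8, the exception being the second Gata4 probe set, where replicates 2 and 4 were both 19. Over all probe sets 453 met the rule. Among these, replicates 1 and 2 both lay above replicates 3 to 5 in 224 and both below in 179, so most separated these arrays. Replicates 1 and 2 were high for both Gata genes, while for Sox17, Foxa1 and Foxa2 replicate 2 was well above replicate 1.

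**Figure D3:**
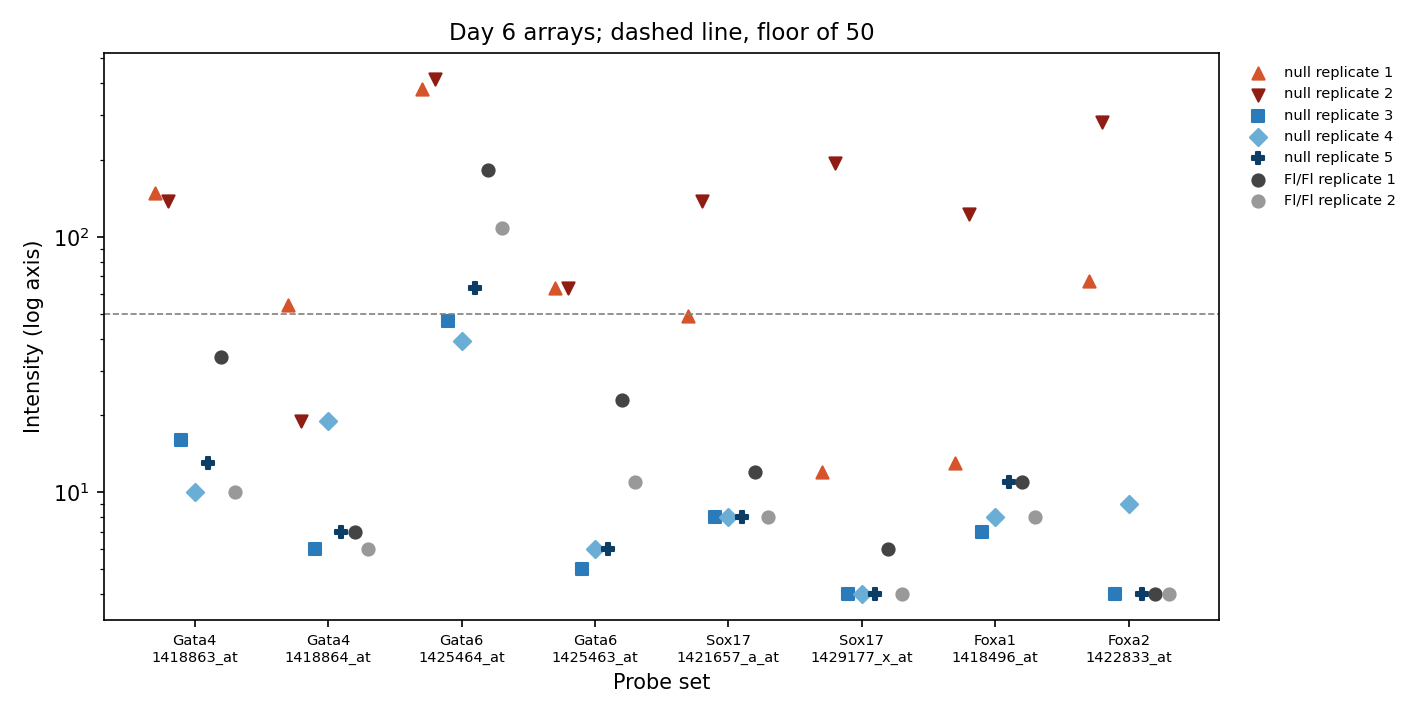
Intensity (log axis) of the 8 probe sets with the widest spread (horizontal axis) on the 5 null and 2 Fl/Fl arrays of day 6, 1 symbol per array; the dashed line is the floor of 50. Null replicates 1 and 2 lie above replicates 3 to 5 in 7 of the 8 probe sets, the exception being the second of Gata4. Over all probe sets 453 met the same rule, with replicates 1 and 2 both above in 224 and both below in 179.

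The same arrays differed in the genes outside endoderm. Replicates 1 and 2 had Eif2s3y of 217 and 13, Meg3 of 1221 and 287, Tmem87a of 12 and 9, and actin ratios of 1.565 and 1.545, against Eif2s3y of 594 to 680, Meg3 of 21 to 88, Tmem87a of 247 to 311 and ratios of 1.29 to 1.31 in replicates 3 to 5. The part of these differences in the spread of the endoderm genes was not tested. Over all probe sets the median difference of replicates 1 and 2 from replicates 3 to 5 was 0, with 1.78% higher by 1 or more and 1.71% lower by 1 or more. Among those above the floor on 1 or more of the 5 arrays, 4.03% were higher and 3.95% lower by as much. Over the 20 member probe sets the median was 0.37, and 9 were higher by 1 or more and 0 lower. By the brightest probe set of each of the 9 genes the median was 1.89, and 6 of 9 were higher by 1 or more. On null day 4 the arrays with Eif2s3y under 500, replicates 1 and 2, had Gata4 at 10 and 14, Gata6 at 7 and 8 and Foxa2 at 4 and 5. Both null arrays of day 8 have Eif2s3y under 500. Replicate 1 of that day (Eif2s3y 365) had Gata6 at 253, above every Fl/Fl array, with Gata4 at 48, Foxa2 at 36 and Sox17 at 30, and replicate 2 (Eif2s3y 11) had them at 65, 8, 4 and 8.

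Marker lists of related and other cell types were set beside these arrays. Of 17 measured genes of mesendoderm and anterior definitive endoderm, the stage from which definitive endoderm forms, 8 met the spread rule on null day 6, and in 7 of these both replicates 1 and 2 lay above replicates 3 to 5. The rule requires the floor to be exceeded on these arrays, as it was for 14 of the 17. Over all probe sets 3.3% of those above the floor there met the rule, and 224 of these 453 had that order. The median difference over the 17 genes was 1.02. The exception was Prdm1, at 38, 170, 32, 53 and 46, and genes such as Hesx1, at 5 on each array, did not meet the rule. Cxcr4, a chemokine receptor, was 817, 710, 39, 19 and 40 on the 5 null arrays, and Dkk1, a secreted Wnt inhibitor, was 139, 121, 10, 5 and 5. Gsc, a homeobox factor of the organizer, was 472, 376, 65, 39 and 55. Lhx1, a LIM homeobox factor, was 4360, 2489, 905, 525 and 617. These 4 genes, and those named in the next paragraphs with a difference of 2 or more, were picked by that difference after their values were seen, so their direction is a description of the choice.

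Of 24 measured products of extraembryonic endoderm, 3 met the rule: Spink1 (43, 363, 14, 14 and 13), Bmp2, a growth factor (256, 325, 21, 44 and 57), and Pdgfra, a growth factor receptor of primitive endoderm (509, 202, 39, 42 and 22). The median difference over the 24 genes was 0.06, but 11 of them exceeded the floor on null day 6. The median thus rests largely on genes below the floor and cannot be set directly beside that of the mesendoderm list. Afp, a protein of yolk sac, was 9 to 11 on the null day 6 arrays, Apoa1 was 8 on each and Apob was 6 on each, so these defining secreted products lay at the floor. The summed intensity of this list was 11171 and 15860 on replicates 1 and 2 and 12723 to 13490 on replicates 3 to 5, below 25421 and 26135 in Fl/Fl. Without Sparc, a matrix protein and the brightest of the list, the sums were 6351 and 9794, then 7257 to 8283. They were 12989 and 15314 in Fl/Fl, where the collagen gene Col4a1 alone was 5114 and 6353.

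Markers of other cells were also examined. The cardiac list had 1 of 11 genes that met the rule (Myl7, a myosin light chain of atrial muscle, at 147, 34, 5, 5 and 5) and the endothelial and blood list 2 of 10, with Kdr, a receptor of endothelial and early mesoderm cells, at 380, 304, 62, 27 and 48. The trophoblast and neural lists had 0 of 10 and 0 of 6, and the undifferentiated ES cell list 1 of 8. Few genes of these lists exceeded the floor on null day 6, which the rule requires. They were 3 of the cardiac list, 3 of the endothelial and blood list, 4 of trophoblast, 0 of the neural list and 4 of the ES cell list. The fibroblast and feeder list had 1 of 13, with 5 genes above the floor on null day 6 and a median difference of 0.04. Its summed intensity was 1513 and 3300 on replicates 1 and 2, 3950 to 5455 on replicates 3 to 5, and 9122 and 12239 in Fl/Fl. That order among null arrays came from Thbs1, a matrix glycoprotein, since without it the sums were 818 and 1296, then 640 to 790, and 4584 and 5257 in Fl/Fl. Their part in the spread of the endoderm genes was not tested.

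**Figure D4:**
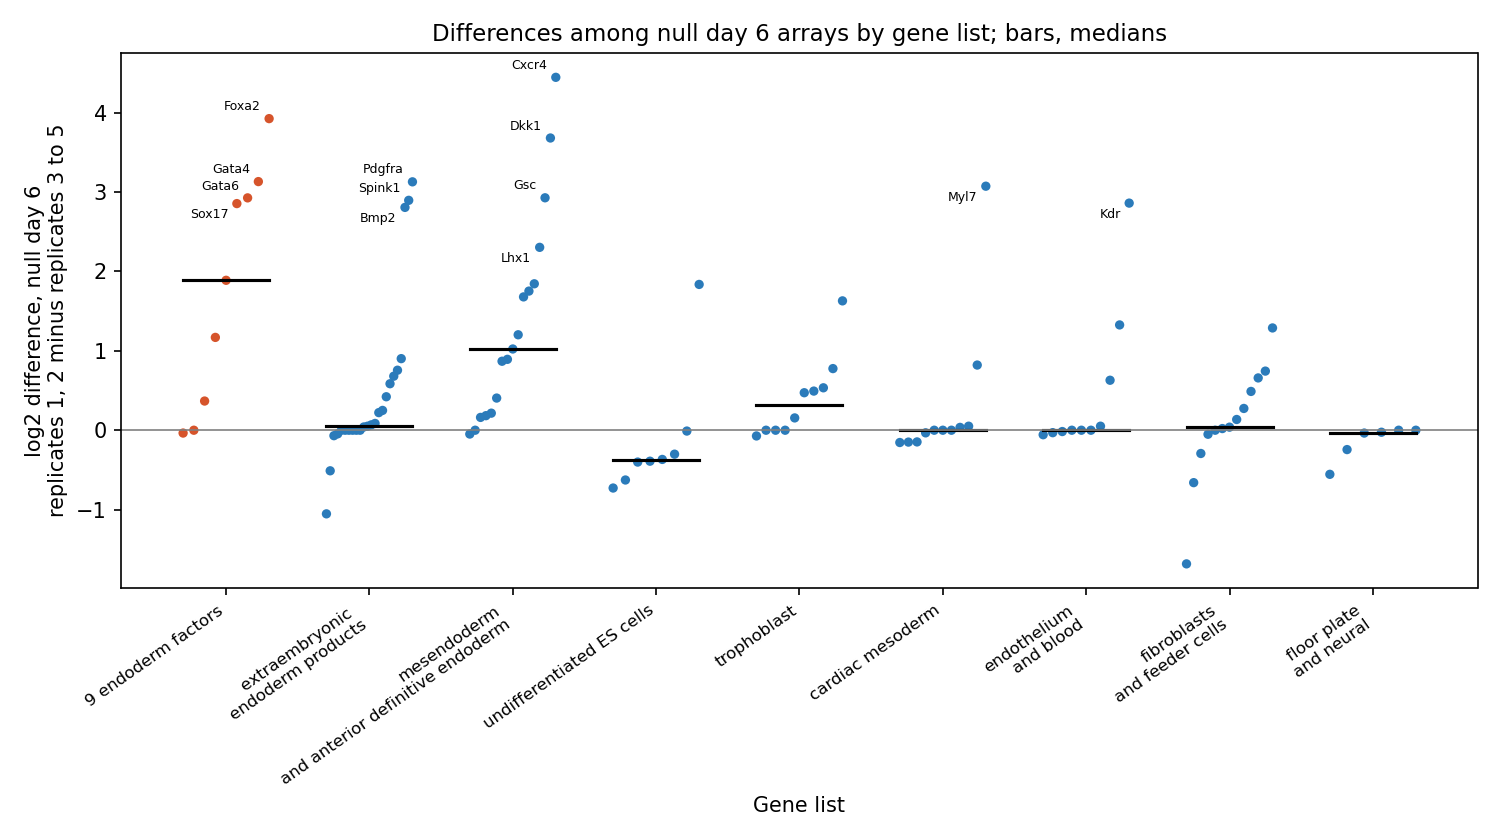
Log2 difference of replicates 1 and 2 from replicates 3 to 5 on null day 6 (vertical axis) for each measured gene of 9 lists (horizontal axis), by the brightest probe set, 1 point per gene; horizontal bars are list medians and genes with a difference of 2 or more are named. The median is 1.89 for the 9 endoderm genes and 1.02 for the mesendoderm list, and 0.06 for extraembryonic endoderm products. The medians include genes below the floor. On null day 6, 14 of 17 mesendoderm genes and 11 of 24 extraembryonic products exceeded it, so these medians are not like for like.

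The lists were also tested against time and genotype. Of the 17 mesendoderm genes, 7 rose and 2 fell between day 0 and day 6 in null (24.5% of all probe sets called), and 6 rose and 4 fell in Fl/Fl (27.1%). Between genotypes, 8.84% of all probe sets were called at day 4 and 8.04% at day 6. At day 4, 5 were lower and 1 higher in null than in Fl/Fl, with a median of -0.47 beside 0 over all probe sets: Mixl1, an early mesendoderm homeobox factor, was lower by a log2 difference of -7.41 (adjusted p = 4.28e-06) and Otx2, an anterior homeobox factor, higher by 2.84 (adjusted p = 0.00078). At day 6, 5 were higher in null and 0 lower. Of the 24 extraembryonic products, 8 rose and 3 fell in null between day 0 and day 6, and 9 rose and 1 fell in Fl/Fl. Comparing genotypes at day 6, 7 were lower in null and 0 higher. The smallest p was that of Thbd, above the floor on 1 array, with a difference of -2.36 (limma adjusted p = 9.16e-13). Next came Plat by -4.78 (adjusted p = 1.33e-06), Bmp2 by -3.70 (0.000539) and Cited1 by -1.94 (0.000847). Markers of other cells moved in the same comparisons. Of 8 genes of undifferentiated ES cells, 2 were higher in null at day 4 (Fgf4 by 4.02 and Sox2 by 2.20), and at day 6 there were 3 higher and 1 lower: Pou5f1 by 3.19, Sox2 by 2.34 and Nanog by 2.78 higher, and Klf4 lower by a difference of -3.17. Of 13 fibroblast and feeder genes, 2 were lower in null at day 4 and 7 at day 6, with 0 higher, such as the collagen gene Col1a1 by -4.77 at day 6. Of 10 trophoblast genes 3 were lower at each of the 2 days and 0 higher. The cardiac list had 1 of 11 lower at each day, and the endothelial and neural lists had 0 called at day 4 and 1 lower each at day 6. The part of these changes in the genotype differences of the endoderm genes was not tested.

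Across the 30 arrays the members differed in how alike their courses were. By log2 values of the brightest probe sets, Pearson's r was 0.96 for Sox17 with Foxa2, 0.92 for Gata4 with Sox17, 0.89 for Gata4 with Foxa2 and 0.78 for Gata4 with Gata6. Dab2 reached r of 0.22 to 0.57 with the other 5 genes above the floor. The values rest mainly on the same few bright arrays and share groups, so they are descriptions. Among 8460 genes above the floor on 6 or more arrays, the 3 most like Gata6 were Kdr (r = 0.97), Pcdh7, a protocadherin (0.97), and Twsg1, a secreted regulator of BMP (0.96). The 3 most like Dab2 were Txndc5 (0.92), Trio (0.92) and Mdk, the growth factor midkine (0.91). The other 7 members exceeded the floor on too few arrays for this.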

How the data were processed

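RNA of 30 samples was hybridised to Affymetrix arrays, 1 array per sample, per the labels. The deposited values are probe set intensities on a linear scale, as whole numbers; the sources used here do not name the authors' normalization or probe set summary. Array means ran from 331.8 to 363.6, and no further scaling was applied. Genes come from the platform annotation; of 45101 probe sets, 34945 named 1 gene and were tested, with 932 naming several, 9160 naming none and 64 controls left out. Values were log2(intensity + 4), 4 being the 5th percentile; folds are 2 raised to a difference on this scale and understate changes near the floor. A model with 1 mean for each group was fitted to the 30 arrays with limma 3.58.1 (R 4.3.3; 20 residual degrees of freedom), with Benjamini-Hochberg adjustment over all probe sets tested and a threshold of 0.05, two-sided. The script was tested on simulated data. Alternatives covered the pseudocount, scaling, a filter, 1 probe set per gene, the floor, the replicate number as a block, each array left out and subsets by Eif2s3y. All member probe sets are reported, with the 3 genes most like a member and up to 4 genes per list by p; genes with a difference of 2 or more among null day 6 arrays, Prdm1, Hesx1, Thbs1 and the yolk sac products Afp, Apoa1 and Apob were added after their values were seen. The members, lists and alternatives were chosen with earlier results of these data known.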

Additional observations from a re-analysis of the deposited data

Results flagged for a closer look

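In the 5 null arrays of day 6, 1 array stood far from the other 4 for 2 probe sets, by the gap to the nearest array over the whole range (Dixon's limit for 5 arrays). Gap and range were taken on the log2(intensity + 4) scale. The second Sox17 probe set was 195 on replicate 2, a gap of 0.784 of the range, and Foxa1 was 123 on replicate 2, a gap of 0.822. The 13 groups examined did not cover every member probe set on each day with 5 null arrays. Both flagged probe sets exceeded the floor on replicate 2 alone. If groups were examined because they passed the floor, the flagged value itself brought the group in. The usual chance rate of about 1 in 20 groups need not apply then, so no conclusion is drawn from the number of flags. Both flags fall on the same array, with Eif2s3y of 13 and an actin 3′ over 5′ ratio of 1.545.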

How the results depend on the processing

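Counts are of the 20 member probe sets called. Comparing null with Fl/Fl, a pseudocount of 16 gave 0 at day 4 and 1 at day 8; null arrays with Eif2s3y of 500 or more gave 1 at day 0, 2 at day 4 and 3 at day 6, and those under 500 gave 3 at day 6. Over all probe sets these subsets called 6885 and 453 at day 6, against 2808. As shares of all probe sets, the pseudocount of 16 called 2.76% at day 8. The subset of 500 or more called 11.8% at day 0, 21% at day 4 and 19.7% at day 6. Those under 500 called 1.3% at day 6. For day 8 against day 0 in Fl/Fl, quantile normalization gave 3 and 1 probe set per gene 2. For day 4 against day 0 in null, centring on medians, leaving out the 40% lowest probe sets, 1 probe set per gene and the subset of 500 or more gave 1 each. For day 6 against day 0 in null the subset under 500 gave 7. For the change of the genotype difference between days, the subset of 500 or more, days 0 to 6 only, gave 2, beside 14% of all probe sets. With the floor at 100, 2 probe sets rather than 4 exceeded it throughout a group. Leaving out 1 array gave ranges of 0 to 1 (null against Fl/Fl, day 6), 0 to 3 (day 8), 0 to 2 (day 4 against day 0 in Fl/Fl), 2 to 3 (day 6), 3 to 5 (day 8), 1 to 2 (day 4 in null), 3 to 6 (day 6 in null), 3 to 5 (day 8 in null), 0 to 2 (the difference between days) and 5 to 8 (the spread on null day 6, 5 without replicate 2). Deviations from group means were correlated between Fl/Fl and null arrays of a day. Same-numbered arrays gave -0.356 to 0.213 (2 of 10 over 0.1) and other-numbered arrays -0.226 to 0.356 (6 of 30). With 2 Fl/Fl arrays per day these deviations mirror each other, so the check cannot decide whether replicate numbers pair the samples. The block gave 0 at day 4 for null against Fl/Fl and 1 for day 4 against day 0 in null. Of the alternatives for single called probe sets, 231 kept the call, 53 lost it and 0 reversed it; other causes were not tested. The number of arrays, 2 in 6 of 10 groups, limits the precision, and most members lie below the floor.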
